A study of Mus musculus with 21 samples.

Results

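The genes described here are 10 regulators of the passage from G1 to S phase: the D cyclins Ccnd2 and Ccnd3, the cyclin-dependent kinases Cdk4, Cdk6 and Cdk2, the inhibitors Cdkn1a, Cdkn1b, Cdkn2c and Cdkn2d, and the pocket protein gene Rb1. They were matched by symbol in the deposited expression table and by Ensembl identifier in the table of counts, and all 10 of 10 were found among its 47643 genes. Their RNA was counted with QuantSeq, a 3' end library method, in sorted CD4+ T cells of Tg4 Tiger Nr4a3-Tocky mice. Every group shares 3 alleles: the Tg4 transgenic T cell receptor for myelin basic protein (MBP) peptide, an Il10-GFP reporter (Tiger) and Nr4a3-Tocky, a Timer protein under Nr4a3 control that is blue when new and turns red with age. Untreated mice formed the control group, and the other mice were given [4Y] MBP peptide under the skin without adjuvant, at a low dose of 0.8 µg or a high dose of 80 µg, with cells taken after 4 h, 12 h or 24 h. Each of the 7 groups held 3 libraries, 21 in all, and the age of the mice is not given in the sources used here. The sorting gate moved with time in the study's methods, from Blue+Red- cells (4 h) through Blue+Red+ cells (12 h) to Blue-Red+ cells (24 h), and time after peptide cannot be told apart from gate, and the sources used here do not give the gate of the control cells beyond a sort on the Timer. The receptor is the same transgenic one in all these mice, which limits the data to 1 specificity.

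In a resting T cell, D cyclins are scarce partners of CDK4 and CDK6, and the CIP/KIP inhibitor p27 (the product of Cdkn1b) holds CDK2 inactive. Signals through the T cell receptor raise cyclin D, the cyclin D kinases begin to phosphorylate the Rb protein, and E2F factors released from Rb turn on cyclin E and the genes of DNA synthesis. INK4 inhibitors (p18 from Cdkn2c, p19 from Cdkn2d) bind CDK4 and CDK6 and keep them from cyclin D, while p21 (Cdkn1a) can be induced by p53 or by mitogenic signals. Much of this control acts on protein, which was not measured here.

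Library totals ran from 2352800 to 6244279 counts, a single gene, Gm42418, took 17 to 27.8% of them, and all 10 genes passed the filter of at least 10 counts over all samples. Between libraries of a group, the chi-square per degree of freedom over genes with at least 20 counts was 3.35 to 7.84, apart from 2 libraries at 12 h. Replicate 3 of 0.8 µg gave 14.8 and 14.4 against the others of its group, which gave 3.35 between them, and replicate 2 of 80 µg gave 8.7 and 9.49, beside 4.87. Calls of the 10 genes, and calls of pathway genes between doses at 12 h, that were lost without either of these libraries are named beside the results. The transcripts that define the CD4+ T cell lineage were present in every library: Cd4 lay between 46.4 and 334 CPM (counts scaled to the library total) and Cd3e between 78.9 and 283 CPM. In sum the 6 B cell markers moved with the groups, from 379 to 403 CPM in the control to 31.8 to 59.5 CPM in the 4 h groups. They stood at 33.5 to 85.3 CPM in the 12 h groups and 278 to 399 CPM in the 24 h groups. Most of that sum was Ighm (21.5 to 386 CPM), while Cd79a was at 0 in 17 of 21 libraries, and the part of these transcripts in the results was not tested. The summed levels over all libraries were 13.1 to 51.3 CPM for 2 CD8 T cell markers, 3.46 to 35 CPM for 9 myeloid and dendritic cell markers, 0 to 4.49 CPM for 3 NK cell markers and 5.31 to 212 CPM for 6 erythroid markers. The 9 CD4 T cell markers summed to 3928 to 4240 CPM in the control, 1836 to 2364 CPM at 4 h and 12 h and 3378 to 4009 CPM at 24 h. In bulk samples of this kind, fewer cells that express a gene and less RNA per cell cannot be told apart. Levels are relative to the other RNA of a library, and the sources used here do not give the total RNA of a cell.

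Locations are those of GENCODE on GRCm38. Ccnd2 lies at chr6:127125162-127152193 on the minus strand and Ccnd3 at chr17:47505051-47599691 on the plus strand. Cdk4 (chr10:127063534-127067920, plus), Cdk6 (chr5:3341485-3531008, plus) and Cdk2 (chr10:128697939-128705031, minus) encode the kinases. The inhibitors are Cdkn1a (chr17:29090976-29100727, plus), Cdkn1b (chr6:134920401-134925513, plus), Cdkn2c (chr4:109660876-109667189, minus) and Cdkn2d (chr9:21288410-21291407, minus), and Rb1 lies at chr14:73183673-73325822 on the minus strand. Exons of 7 of these genes overlap an annotated exon on the opposite strand, and in the last 500 bases, where 3' reads fall, Ccnd3 meets Bysl, Cdk4 meets Tspan31 and Rb1 meets Rcbtb2. The strand setting of the read counting is not given in the sources used here, so the values of these partners are given beside the genes they touch.

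RefSeq promoter windows (build GRCm38.p6, 250 bases before to 50 bases after a start) were available for 8 of the 10 genes, in 11 windows, with no entry for Ccnd2 and Rb1. Each window was searched on both strands for 7 motifs: E2F (TTTCCCGC, TTTGGCGC, TTTGCCGC or TTTCGCGC), the E-box CACGTG, the GC box GGGCGG, FOXO (TGTTTAC), AP-1 (TGANTCA), NFAT (TGGAAA) and CRE (TGACGTCA). None of the matches to different motifs overlapped in these windows. The 5 windows printed are those of Cdk4, for its 4 E-boxes, of Cdk2, for the only E2F match, and of Cdkn1b, Cdkn2d and Cdkn2c, 3 inhibitor genes whose RNA was low together at 4 h. Capitals mark E-box, E2F and GC box matches, and each sequence reads 5' to 3' on the strand of its gene.
Cdk4 (chr10:127063285-127063584, plus): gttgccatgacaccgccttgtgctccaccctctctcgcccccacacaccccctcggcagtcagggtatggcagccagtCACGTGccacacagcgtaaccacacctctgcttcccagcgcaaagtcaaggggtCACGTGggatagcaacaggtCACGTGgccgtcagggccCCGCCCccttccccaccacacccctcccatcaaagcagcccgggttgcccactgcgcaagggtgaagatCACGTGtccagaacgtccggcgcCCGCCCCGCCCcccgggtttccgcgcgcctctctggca
Cdk2 (chr10:128705002-128705301, minus): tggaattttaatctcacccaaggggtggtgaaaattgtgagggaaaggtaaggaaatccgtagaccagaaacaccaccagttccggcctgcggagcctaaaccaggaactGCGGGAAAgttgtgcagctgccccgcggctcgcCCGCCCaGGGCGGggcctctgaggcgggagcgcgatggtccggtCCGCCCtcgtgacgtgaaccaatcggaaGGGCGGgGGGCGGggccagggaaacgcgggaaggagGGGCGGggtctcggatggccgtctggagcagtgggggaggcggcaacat
Cdkn1b (chr6:134920151-134920450, plus): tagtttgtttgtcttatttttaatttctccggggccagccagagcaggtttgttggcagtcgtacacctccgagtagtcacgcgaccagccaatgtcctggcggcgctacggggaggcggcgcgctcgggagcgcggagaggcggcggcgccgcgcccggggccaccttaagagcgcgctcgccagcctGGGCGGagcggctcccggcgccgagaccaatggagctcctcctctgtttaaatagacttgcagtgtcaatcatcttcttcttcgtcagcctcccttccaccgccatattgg
Cdkn2d (chr9:21291160-21291459, minus): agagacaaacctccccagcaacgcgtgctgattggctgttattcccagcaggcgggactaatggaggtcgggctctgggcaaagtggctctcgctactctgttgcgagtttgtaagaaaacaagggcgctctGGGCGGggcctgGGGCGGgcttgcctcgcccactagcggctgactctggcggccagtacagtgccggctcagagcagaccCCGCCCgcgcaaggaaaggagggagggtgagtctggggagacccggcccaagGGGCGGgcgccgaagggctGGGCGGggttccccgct
Cdkn2c, upstream of its 2 windows (chr4:109666707-109667006, minus): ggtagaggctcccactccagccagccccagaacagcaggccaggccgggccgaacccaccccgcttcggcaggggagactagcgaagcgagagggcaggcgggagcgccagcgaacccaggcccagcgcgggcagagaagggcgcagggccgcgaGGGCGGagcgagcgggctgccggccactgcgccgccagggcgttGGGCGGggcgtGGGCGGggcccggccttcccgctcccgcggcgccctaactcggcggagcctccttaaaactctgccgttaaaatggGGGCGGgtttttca

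The 4 E-boxes of Cdk4 lie at -172, -118, -98 and -11 from the start. Of 32851 windows in the table, 7.15% held at least 1 E-box and 8 windows, 0.0244%, held 4 or more. The other E-boxes were in Cdk6, at -220, and in the second Cdkn2c window, at 35. E2F letters were in 2.26% of all windows and, among these genes, in Cdk2 alone, at -140. GC boxes were in 8 of the 11 windows and in 35.7% of all windows. The FOXO letters were in 1 of the 11, a Ccnd3 window (3.65% of all), and the NFAT (21.4%), AP-1 (7.81%) and CRE letters (1.79%) were in none. A match or its absence describes letters in this window only.

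**Figure D1:**
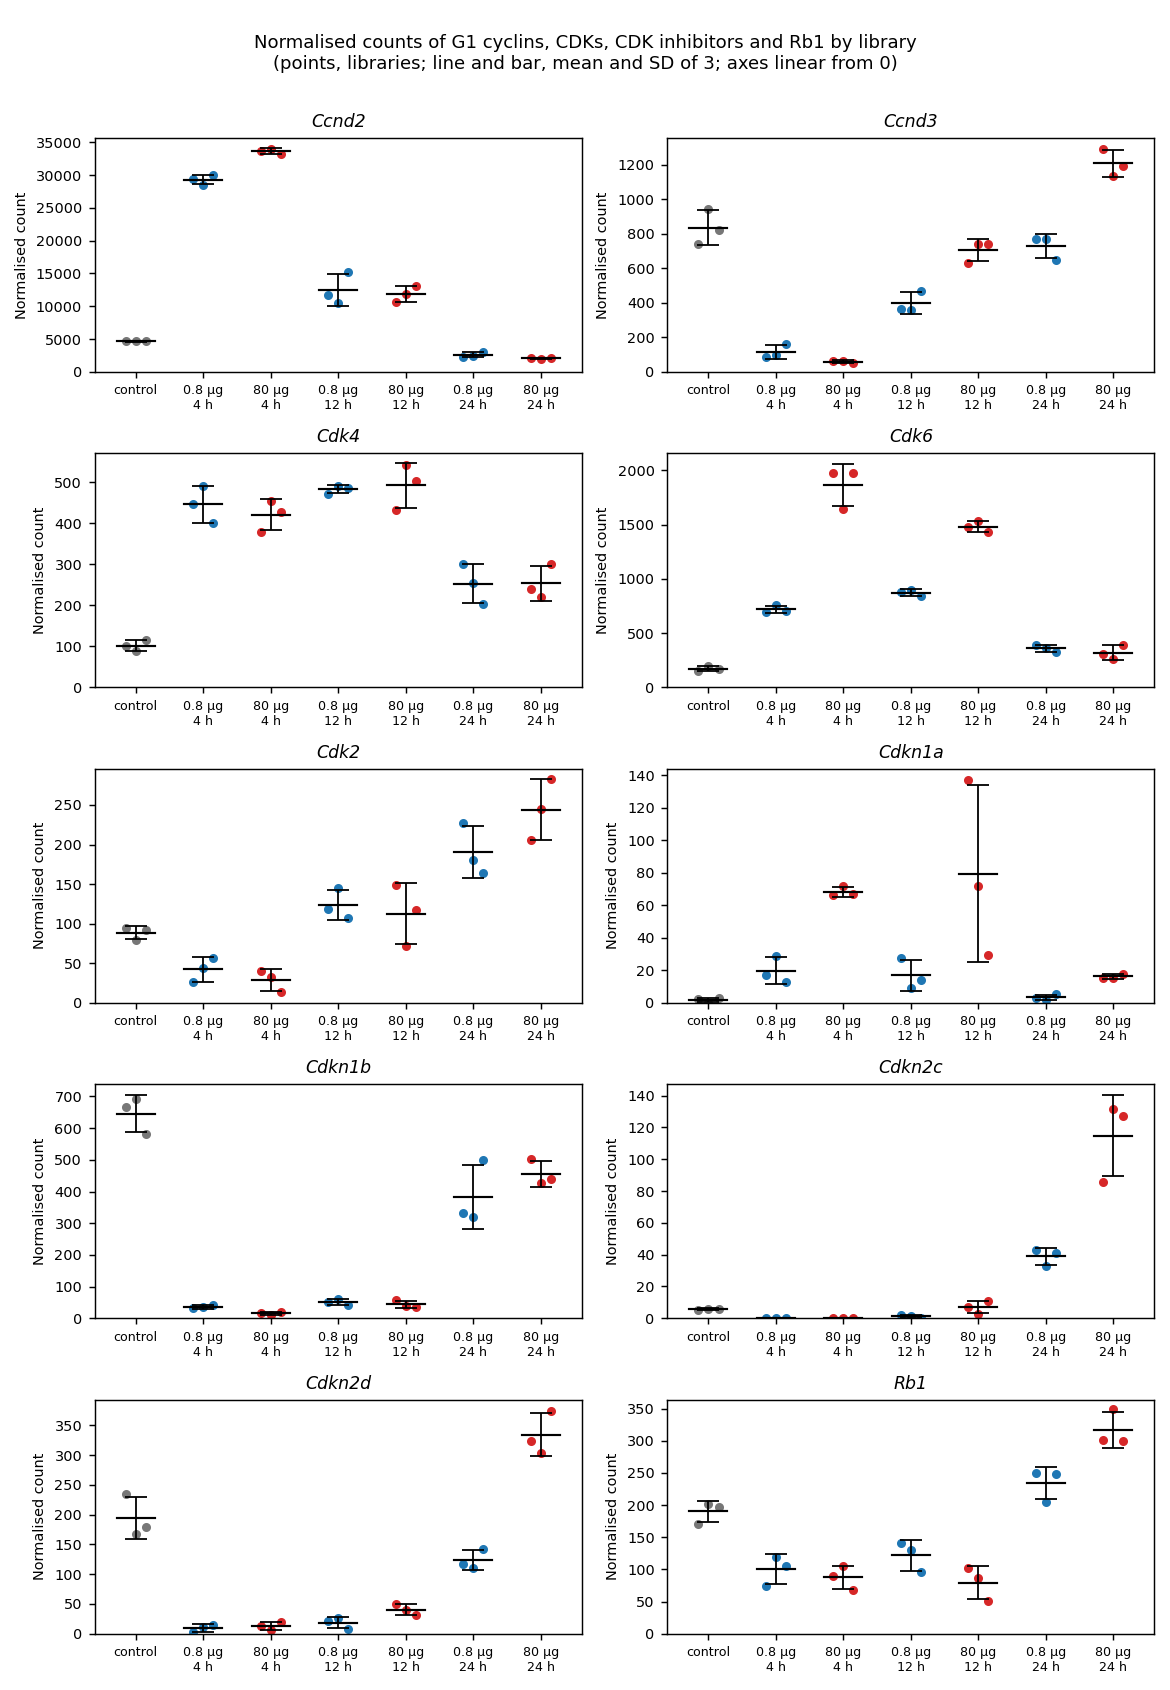
Normalised counts (library-size scaled by DESeq2, linear axes from 0) of the 10 genes in the 21 libraries, as points, with the mean and SD of the 3 libraries of each group. Ccnd2 and, with 80 µg, Cdk6 are highest at 4 h, Cdk4 is high at 4 h and 12 h, Cdkn1b is highest in the control, and Ccnd3, Cdk2, Cdkn2c, Cdkn2d and Rb1 are highest at 24 h with 80 µg.

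To ask how antigen recognition moved these genes, each group that received peptide was compared with the control. A gene was called when its adjusted p was under 0.05 and its shrunken log2 fold change exceeded 1 in size. Fold values are shrunken log2 fold changes put back on the linear scale. Those given as at least or with a counting interval were not shrunken. At 4 h, 4 genes rose at both doses, namely Ccnd2, Cdk4, Cdk6 and Cdkn1a. Ccnd3, Cdk2, Cdkn1b, Cdkn2c and Cdkn2d fell at both doses, and Rb1 fell at 80 µg. These are 4 higher and 5 lower of 10 at 0.8 µg, where 17.3% of all genes tested were called higher and 23.4% lower, and 4 higher and 6 lower at 80 µg, where the shares over all genes were 18.4% and 25.1%. At 12 h, 4 genes were higher and 4 lower at 0.8 µg (17.2% and 20.5% of all genes), and 4 were higher and 3 lower at 80 µg (17.8% and 20.1%). At 24 h, 4 were higher and 0 lower at 0.8 µg (11.5% and 5.84% of all genes), and 4 were higher and 1 lower at 80 µg (12.3% and 7.91%). Of the genes lower at 24 h with 0.8 µg, 3 had an unadjusted p under 0.05 in DESeq2, and edgeR and limma called 0. The 6 comparisons share the same 3 control libraries.

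The D cyclins moved in opposite directions. Ccnd2, which encodes cyclin D2, measured 4640, 4738 and 4645 normalised counts in the 3 control libraries. At 4 h it measured 29474, 28552 and 29961 with 0.8 µg and 33696, 34044 and 33173 with 80 µg. All 6 libraries lay far above the control, with log2 fold changes of 2.64 ± 0.11 (SE, adjusted p = 4.35e-130) and 2.84 ± 0.11 (adjusted p = 3.15e-150), or 6.24-fold and 7.15-fold. At 12 h, Ccnd2 was still 2.66-fold (0.8 µg) and 2.53-fold (80 µg) above the control, at 11684, 10522 and 15246 and at 10584, 11845 and 13130 normalised counts. By 24 h it had dropped below the control in every library, to 2306, 2480 and 3033 with 0.8 µg and 2146, 1953 and 2037 with 80 µg. That difference was called at 80 µg (log2 fold change -1.19 ± 0.11, adjusted p = 4.77e-26), whereas the 0.8 µg value, -0.84 ± 0.11, was under the fold threshold. From 12 h to 24 h Ccnd2 fell 4.77-fold at 0.8 µg and 5.77-fold at 80 µg.

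Ccnd3, which encodes cyclin D3, measured 741, 944 and 819 normalised counts in the control. The 4 h libraries held 83.8, 94.8 and 159.7 with 0.8 µg and 61.3, 64.9 and 48.9 with 80 µg. It was thus 7.28-fold lower at 0.8 µg (log2 fold change -2.86 ± 0.17, adjusted p = 1.84e-63) and 14-fold lower at 80 µg (-3.81 ± 0.18, adjusted p = 4.72e-96), with no overlap. It recovered to 366, 358 and 469.6 at 12 h with 0.8 µg and to 632, 740.3 and 742 with 80 µg, the second of which overlapped the control. Without replicate 2 of every group, the 0.8 µg difference from control at 12 h was -0.88 in place of -1.07 and was no longer called, nor was it with only the 6 samples compared (-0.99). At 24 h the libraries of the 0.8 µg group (769, 769 and 646) overlapped the control and those of the 80 µg group (1293, 1133 and 1194) exceeded it. The opposite-strand partner Bysl moved the other way at 4 h, from a mean of 64.6 normalised counts in the control to 372 and 424, and was back at 62.9 and 70.8 at 24 h.

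Ccnd1, the remaining D cyclin gene, had group means of at most 3.94 normalised counts. Within the sum of Ccnd2 and Ccnd3 counts, Ccnd2 made up 84.9% ± 1.43 (SD, n = 3) in the control, 99.6% ± 0.131 and 99.8% ± 0.0228 at 4 h, and 77.9% ± 3.97 (0.8 µg) and 62.9% ± 0.464 (80 µg) at 24 h. The lowest 0.8 µg library at 24 h held 75% and the highest 80 µg library 63.3%, so that the doses did not overlap. These are shares of 3' end counts, which do not scale with transcript length, and not shares of protein.

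At 4 h the kinases split by partner, with Cdk4 and Cdk6 called higher and Cdk2 lower than the control at both doses. Cdk4 measured 101, 88.2 and 116 normalised counts in the control. With 0.8 µg it measured 447, 491 and 401 at 4 h, 472, 492 and 487 at 12 h and 301, 254 and 204 at 24 h. With 80 µg it measured 379.6, 455 and 429, then 433, 542 and 504, then 240.0, 220.0 and 301. All 18 libraries lay above the control, and Cdk4 was the 1 gene of the 10 called higher in all 6 comparisons with it, by 4.37-fold and 4.13-fold at 4 h, 4.74-fold and 4.83-fold at 12 h, and 2.49-fold and 2.5-fold at 24 h. Tspan31, on the opposite strand at its 3' end, had group means between 7.87 and 39 normalised counts, of which the 2 lowest were those at 4 h. Myc, whose protein binds E-boxes, had means of 53.8 in the control, 918 and 1188 at 4 h, 187 and 194 at 12 h, and 34.7 and 35.1 at 24 h.

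Cdk6 was the kinase that differed with dose. It measured 154, 196 and 166 normalised counts in the control, 691, 759 and 704 at 4 h with 0.8 µg, and 1980, 1645 and 1981 at 4 h with 80 µg. At 12 h it measured 874, 902 and 843 with 0.8 µg and 1477, 1532 and 1432 with 80 µg. The 80 µg libraries stood above every 0.8 µg library at both times, with fold changes against the control of 10.7 and 8.52 for 80 µg and of 4.14 and 5.04 for 0.8 µg. At 24 h the doses overlapped, at 389, 358 and 329 and at 306, 262 and 393. The 24 h rise was called at 0.8 µg (log2 fold change 1.06 ± 0.14, adjusted p = 1.53e-13), with no call without replicate 1 (0.91) or with library totals (0.92), and not at 80 µg (0.90 ± 0.14, adjusted p = 4.27e-10), which reached 1.14 and a call without replicate 2. Cdk6 made up 62.7% ± 5.43 of the counts of Cdk6 and Cdk4 in the control, 61.7% ± 1.71 and 64.3% ± 0.839 at 4 h and 12 h with 0.8 µg, and 81.5% ± 2.87 and 75.1% ± 1.97 with 80 µg (SD, n = 3).

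Cdk2, the kinase of cyclins E and A, followed another course. It measured 94.8, 79.1 and 91.4 normalised counts in the control, fell at 4 h to 26.2, 43.5 and 57.2 with 0.8 µg and to 40.5, 32.9 and 13.7 with 80 µg, and at 24 h stood at 227, 180.0 and 164 and at 206, 244 and 282. The fall was 2.06-fold at 0.8 µg (adjusted p = 0.00125), with a log2 fold change of -0.71 and no call without replicate 1, and 3-fold at 80 µg (adjusted p = 7.8e-07). The 24 h rise was 2.12-fold and 2.72-fold (adjusted p = 0.00043 and 1.04e-06), and the first of these was not called without replicate 1 or with library totals, at log2 fold changes of 1.00 and 0.95. At 12 h the levels of 107 to 144 and 71.9 to 149 were not called different from the control (log2 fold changes 0.48 ± 0.28 and 0.34 ± 0.28, adjusted p = 0.142 and 0.311).

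The CIP/KIP inhibitors moved in opposite directions at 4 h and 12 h, when with 80 µg the mean of Cdkn1a passed that of Cdkn1b. Cdkn1b, which encodes p27, measured 666, 692 and 581 normalised counts in the control, its highest group. The 4 h values were 31.3, 35.6 and 43.2 with 0.8 µg and 16.2, 11.6 and 20.6 with 80 µg. It was 17.1-fold lower at 0.8 µg (log2 fold change -4.09 ± 0.22, adjusted p = 2.56e-72) and 37.2-fold lower at 80 µg (-5.22 ± 0.26, adjusted p = 4.51e-85). At 12 h it stayed 12.3-fold and 14.3-fold lower, at 50, 60.2 and 42.3 and at 57.6, 38.2 and 36.9. At 24 h it had returned to 331, 319.8 and 499.7 and to 502, 425 and 440.0, below every control library but under the fold threshold (-0.75 ± 0.18 and -0.50 ± 0.18, adjusted p = 0.000154 and 0.014). Without replicate 3 the 0.8 µg value was -1.05 and was called.

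Cdkn1a, which encodes p21, measured 2.06, 0 and 2.86 normalised counts in the control, from 4 counts in all. At 4 h it measured 17.2, 29 and 12.9 with 0.8 µg and 66, 71.7 and 66.9 with 80 µg. At 12 h it measured 27.4, 9.03 and 14.1 with 0.8 µg and 137, 71.9 and 29.2 with 80 µg, the widest range of its 7 groups. At 24 h it was down to 2.92, 1.86 and 5.16 with 0.8 µg and to 15.3, 15.5 and 17.9 with 80 µg. Because each control library had at most 2 counts, the ratio of summed normalised levels is given with its 95% counting interval: 12.7 (4.65 to 48.2) and 45.3 (17.4 to 168) at 4 h, 10.8 (3.97 to 41.1) and 53 (20.5 to 196) at 12 h, and 2.16 (0.624 to 9.46) and 10.9 (4.06 to 41.3) at 24 h, for 0.8 µg and 80 µg in turn. The adjusted p was at most 0.000418 in 5 of these and 0.398 at 24 h with 0.8 µg. Cdkn1a made up 0.266% ± 0.247 of the counts of Cdkn1a and Cdkn1b in the control, 34.5% ± 10.9 at 4 h with 0.8 µg and 80.9% ± 4.82 at 4 h with 80 µg (SD, n = 3). At 12 h with 80 µg it was 60% ± 14, and 1 of the 3 libraries, at 44.1%, held more Cdkn1b than Cdkn1a.

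**Figure D2:**
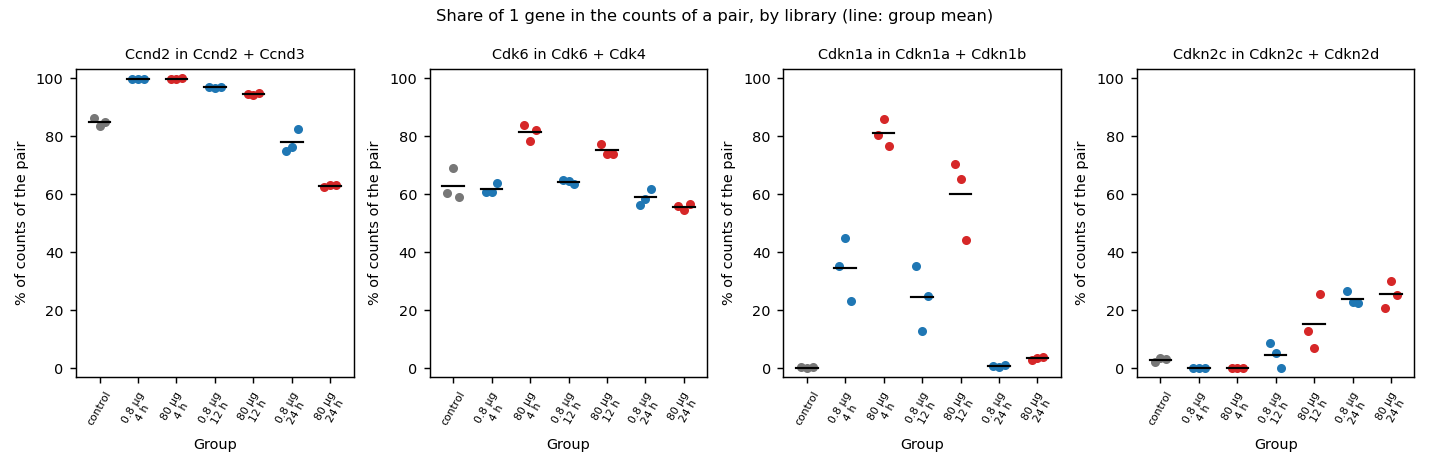
Share (%) of Ccnd2, Cdk6, Cdkn1a and Cdkn2c in the counts of 4 gene pairs, by group on the horizontal axis, with a point for each of the 3 libraries and a line at the group mean. Ccnd2 makes up 62.4 to 63.3% of its pair at 24 h with 80 µg, and Cdkn1a makes up 76.5 to 86% of its pair at 4 h with 80 µg and at most 0.489% in the control.

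Both INK4 inhibitors were below the control at 4 h, and at 24 h Cdkn2c was called higher than the control at both doses, while neither dose gave a call for Cdkn2d. Cdkn2d, which encodes p19, measured 234, 168 and 179.9 normalised counts in the control. At 4 h it measured 2.02, 11.9 and 14 with 0.8 µg and 12.7, 6.78 and 18.9 with 80 µg, which was 19.1-fold (adjusted p = 6.02e-30) and 13.9-fold lower (adjusted p = 2.37e-30). At 12 h it measured 20.6, 27.1 and 8.22 with 0.8 µg and 49.3, 39.6 and 31.1 with 80 µg, 9.53-fold and 4.72-fold below the control. At 24 h the 0.8 µg libraries (117, 111 and 142) lay below every control library and the 80 µg libraries (324, 304 and 375) above every one, with log2 fold changes of -0.65 ± 0.25 and 0.78 ± 0.24 (adjusted p = 0.0306 and 0.00551) that missed the fold threshold.

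Cdkn2c, which encodes p18, had 15 counts over the control libraries, at 5.15, 6.08 and 5.71 normalised counts. At 4 h it had 0 counts in all 6 libraries. Against a floor of 3 counts per library it was at least 1.66-fold lower than the control at 0.8 µg and at least 1.89-fold lower at 80 µg (adjusted p = 0.000586 and 0.00031). At 12 h it measured 1.96, 1.5 and 0 with 0.8 µg, from 4 counts, and 7.31, 2.93 and 10.7 with 80 µg, from 23 counts. The 0.8 µg group was 4.52-fold below the control (counting interval 1.44 to 18.7, adjusted p = 0.0294), a call that was lost without replicate 1, 2 or 3, without replicate 3 of that group alone, and with only the 6 samples compared. At 24 h Cdkn2c had risen to 42.8, 32.6 and 41.3 with 0.8 µg and 85.5, 132 and 127 with 80 µg, or 6.38-fold and 18.4-fold above the control (adjusted p = 2.15e-06 and 3.69e-15). The 24 h libraries did not overlap those of any earlier group.

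Rb1 encodes the pocket protein that holds E2F factors inactive. It measured 171, 202 and 197 normalised counts in the control. At 4 h it measured 74.7, 119.9 and 106 with 0.8 µg and 89.1, 105 and 68.6 with 80 µg, and at 12 h 141, 129 and 95.1 and 101, 85.8 and 50.5. Every library at 4 h and 12 h lay below the control. The fall was called with 80 µg, 2.16-fold at 4 h and 2.36-fold at 12 h (adjusted p = 1.31e-06 and 5.69e-08), and without replicate 3 neither was called, at log2 fold changes of -0.91 and -0.97. With 0.8 µg the values were -0.92 ± 0.22 and -0.63 ± 0.21, and the first was called with library totals as size factors (-1.06). At 24 h Rb1 measured 249, 205 and 248 with 0.8 µg and 301, 349 and 299.5 with 80 µg. Lpar6 and Rcbtb2, on the opposite strand, also were low at 4 h, with means of 16.6 and 16.2 normalised counts at 80 µg against 338 and 171 in the control. At 12 h with 80 µg their means were 41 and 27.2, and the part of these partners in the Rb1 values was not tested.

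**Figure D3:**
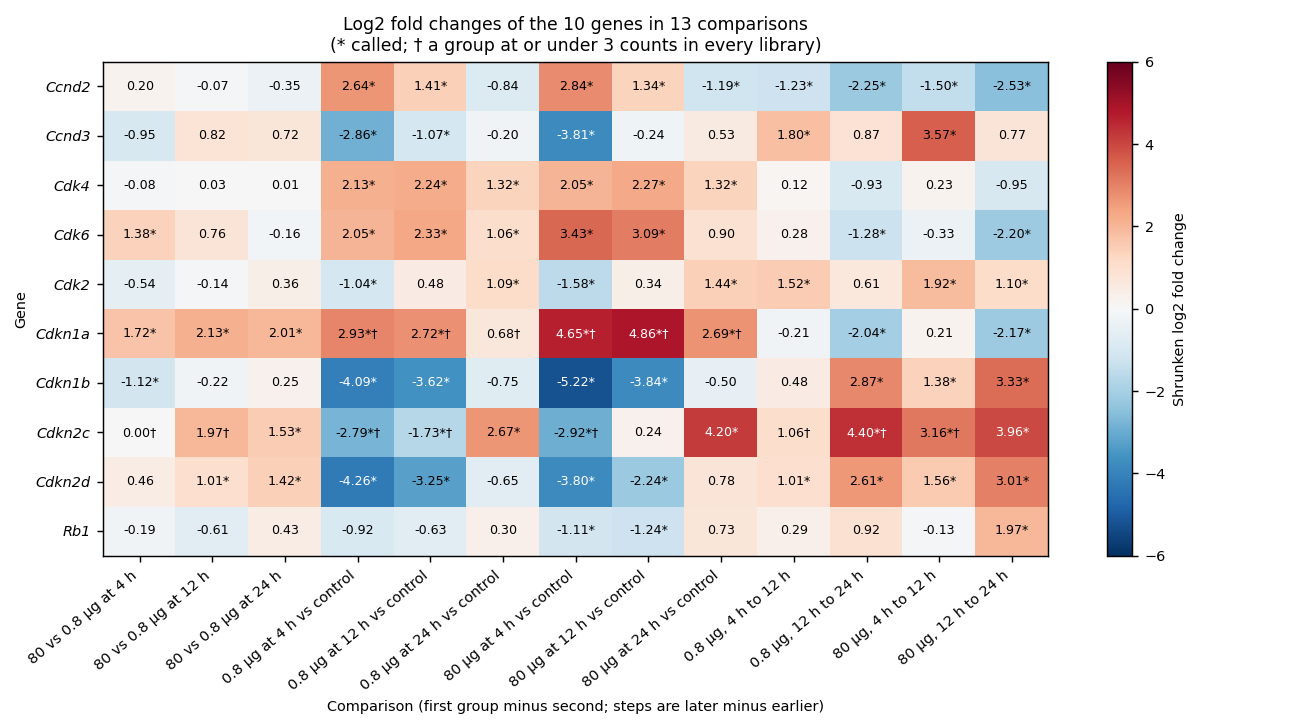
Shrunken log2 fold changes of the 10 genes (rows) in 13 comparisons (columns; first group minus second, or later minus earlier time), coloured from blue (lower) to red (higher). An asterisk marks a called difference, and a dagger marks values where a group had at most 3 counts in every library, so that the fitted value is no measure of size.

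The next question was whether the dose of peptide altered these genes at each stage. At 4 h, Cdk6 and Cdkn1a were higher and Cdkn1b was lower with 80 µg than with 0.8 µg. That is 2 higher and 1 lower of 10, beside 3.12% higher and 2.74% lower of all genes tested. Cdk6 was 2.6-fold higher (log2 fold change 1.38 ± 0.12, adjusted p = 8.18e-30), Cdkn1a 3.28-fold higher (1.72 ± 0.47, adjusted p = 0.00476) and Cdkn1b 2.18-fold lower (-1.12 ± 0.29, adjusted p = 0.00187). Cdkn1a lost its call without replicate 1 (1.61) or replicate 3 (1.49), and Cdkn1b lost it without replicate 2 (-0.94), with limma (-1.16) and with only the 6 samples compared (-0.90). Ccnd3, at 58.4 against 113 normalised counts on average, stood at -0.95 ± 0.20 (adjusted p = 3.31e-05), just under the fold threshold, and was called without replicate 1 (-1.15) or replicate 2 (-1.12).

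At 12 h, Cdkn1a and Cdkn2d were higher with 80 µg, 2 of 10 beside 1.83% of all genes, and DESeq2 called 0 of 10 lower beside 0.96%. In that direction 1 gene, Rb1, had an unadjusted p under 0.05, and edgeR and limma called 0. Cdkn1a was 4.39-fold higher (2.13 ± 0.47, adjusted p = 0.000379) and Cdkn2d 2.02-fold (1.01 ± 0.31, adjusted p = 0.024). Neither was called without replicate 1 (1.97 and 0.87) or replicate 2 (1.82 and 1.35), and Cdkn2d was not called without replicate 3 (0.85), with limma (1.13), with library totals as size factors (0.97) or with only the 6 samples compared (0.62). Leaving out only replicate 3 of 0.8 µg or only replicate 2 of 80 µg, the 12 h libraries that stood apart, Cdkn1a kept its call (2.04 and 2.13) and Cdkn2d lost it (0.71 and 1.03). Ccnd3 (0.82 ± 0.15, adjusted p = 4.82e-06) and Cdk6 (0.76 ± 0.12, adjusted p = 6.61e-09) differed by less than the fold threshold and did not overlap. Cdkn2c, with 23 counts against 4, gave a ratio of 5.28 (1.8 to 21) and an adjusted p of 0.0673, and was called without the 80 µg replicate 2.

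At 24 h, 3 inhibitors were higher with 80 µg: Cdkn1a, Cdkn2c and Cdkn2d. They are 3 of 10 beside 0.89% of all genes, and DESeq2 called 0 of 10 lower beside 0.673%. In that direction 1 gene, Ccnd2, had an unadjusted p under 0.05, and edgeR and limma called 0. Cdkn1a was 4.02-fold (2.01 ± 0.57, adjusted p = 0.0148), Cdkn2c 2.89-fold (1.53 ± 0.38, adjusted p = 0.00323) and Cdkn2d 2.68-fold higher (1.42 ± 0.25, adjusted p = 1.45e-06), each in 3 of 3 libraries. Cdkn2d kept its call whichever replicate was left out, whereas Cdkn1a (1.66 to 2.13) and Cdkn2c (1.27 to 1.71) lost theirs each time, and Cdkn1a also with limma (2.26) and with only the 6 samples compared (0.76). Ccnd3 stayed higher with 80 µg (0.72 ± 0.15, adjusted p = 9.62e-05), and Ccnd2 was lower by a little (-0.35 ± 0.11, adjusted p = 0.0299).

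Cdk4 was the gene least moved by dose, with unshrunken 95% intervals of the log2 difference of -0.37 to 0.20 at 4 h, -0.25 to 0.31 at 12 h and -0.29 to 0.30 at 24 h. For Cdk2 the intervals were wider, -1.21 to 0.08, -0.68 to 0.41 and -0.16 to 0.89, and its adjusted p was at least 0.326 at each time. Ccnd2 at 4 h differed by 0.20 ± 0.11 (adjusted p = 0.279), although the 80 µg libraries all lay above the 0.8 µg ones.

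**Figure D4:**
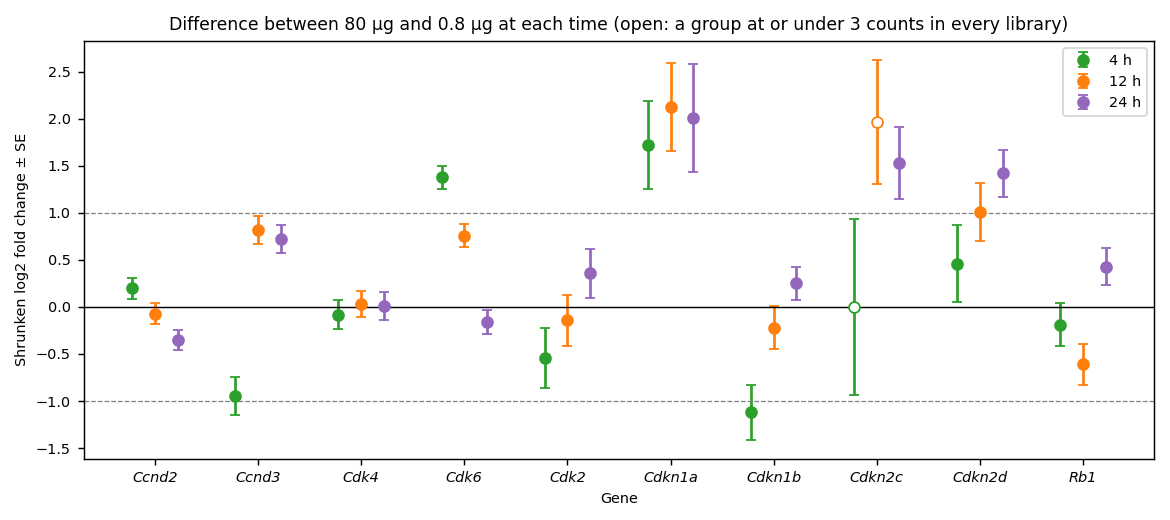
Shrunken log2 fold change of 80 µg against 0.8 µg (vertical axis, ± SE, n = 3 per group) for each gene at 4 h, 12 h and 24 h. Dashed lines mark the fold threshold of 1, and open symbols mark Cdkn2c at 4 h and 12 h, where at least 1 group had no library over 3 counts. Cdkn1a lies above the threshold at all 3 times, Cdk6 at 4 h alone, and Ccnd3 changes sign between 4 h and 12 h.

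Whether the effect of dose changed with time was tested on the 18 libraries of mice given peptide with a likelihood ratio test. It was called for 5 of 10 genes beside 10.4% of all genes. Cdk6 had the smallest adjusted p, 6.26e-16, with a dose difference that shrank from 1.38 at 4 h to 0.76 and -0.16. Ccnd3 followed (adjusted p = 3.35e-11), lower with 80 µg at 4 h and higher at 12 h and 24 h. Cdkn1b (adjusted p = 0.00964), Rb1 (0.0342) and Ccnd2 (0.0421) were also called, and all 3 lost the call without replicate 1 or replicate 2, Rb1 also without replicate 3. Rb1 and Ccnd2 lost it without the 80 µg 12 h replicate 2 alone as well. Cdkn1a, whose dose difference was 1.72, 2.13 and 2.01, had an adjusted p of 0.904. For Cdkn2d, with 0.46, 1.01 and 1.42, it was 0.509.

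Within each dose, consecutive times were compared. From 4 h to 12 h at 0.8 µg, Ccnd3, Cdk2 and Cdkn2d rose and Ccnd2 fell, 3 and 1 of 10 beside 12.6% and 7.98% of all genes. Cdkn2d rose there by 1.01 ± 0.39 on the log2 scale (adjusted p = 0.0253) with overlapping libraries, and was not called without replicate 1 (0.45) or replicate 2 (0.77), without the 80 µg 12 h replicate 2 alone (1.00), with limma (1.31), with TMM size factors (1.00), with only the 6 samples compared (0.80) or with the replicate block (1.00). At 80 µg, 5 rose, Ccnd3, Cdk2, Cdkn1b, Cdkn2c and Cdkn2d, and Ccnd2 fell, beside 15.7% and 9.1%. The rise of Ccnd3 was 11.8-fold at 80 µg (adjusted p = 1.55e-83) and 3.47-fold at 0.8 µg (adjusted p = 2.93e-24). Cdkn1b rose 2.6-fold at 80 µg (adjusted p = 5.25e-06), and its change at 0.8 µg was 0.48 ± 0.25 (adjusted p = 0.112).

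From 12 h to 24 h, Cdkn1b, Cdkn2c and Cdkn2d rose at both doses, and Ccnd2, Cdk6 and Cdkn1a fell at both. At 0.8 µg these were 3 higher and 3 lower beside 17.1% and 9.48% of all genes. At 80 µg Cdk2 and Rb1 rose too, which made 5 higher and 3 lower beside 16.7% and 10.5%. Cdkn1b rose 7.3-fold at 0.8 µg (adjusted p = 1.05e-41) and 10.1-fold at 80 µg (adjusted p = 5.59e-56), and Cdkn2d 6.09-fold and 8.08-fold (adjusted p = 6.97e-17 and 9.85e-29). Cdkn2c rose 15.6-fold at 80 µg (adjusted p = 1.38e-16). At 0.8 µg the unshrunken ratio, which does not compare with that fold, was 31 (counting interval 11.8 to 116). Cdk6 fell 2.42-fold and 4.58-fold, and Cdkn1a 4.12-fold and 4.5-fold. The Cdkn1a means went from 16.9 to 3.32 normalised counts at 0.8 µg and from 79.4 to 16.2 at 80 µg. Without replicate 1 the 0.8 µg fall of Cdkn1a was -1.38 and was not called, nor was it with limma (-2.11). Without replicate 2 the 80 µg rise of Cdk2 was 0.84 and was not called, nor was it without the 12 h replicate 2 of that dose alone (0.87) or with library totals as size factors (0.88). Cdk4 stood 0.93 ± 0.15 and 0.95 ± 0.15 lower on the log2 scale at 24 h than at 12 h, just under the threshold, and was called without replicate 1 at 0.8 µg (-1.09) and without replicate 3 at 80 µg (-1.09), and at both doses with library totals (-1.07 and -1.15) or only the 6 samples compared. At 0.8 µg Ccnd3 (1.07 without replicate 3, and 1.00 without that of 12 h alone) and Rb1 (1.04 without replicate 2) were not called in the full fit and were called higher with that replicate left out.

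Ordering the 7 groups by their means set the genes apart by the group in which each was highest. Ccnd2 ran from 80 µg 4 h through 0.8 µg 4 h, the 12 h groups and the control to 80 µg 24 h, and the 12 h groups were the only neighbours in that order whose libraries overlapped. Cdkn1b ran from the control through the 24 h groups, which overlapped, to the 12 h and 4 h groups, of which 0.8 µg 12 h overlapped 80 µg 12 h and the latter overlapped 0.8 µg 4 h, while 80 µg 4 h overlapped none. Cdk6 ran from 80 µg 4 h to the control with overlap between the 24 h groups alone, while the 4 highest groups of Cdk4, those of 4 h and 12 h, overlapped their neighbours among the 4 and lay above both 24 h groups. Cdkn1a was highest at 80 µg 12 h, which overlapped 80 µg 4 h. Ccnd3, Cdk2, Cdkn2c, Cdkn2d and Rb1 were highest at 80 µg 24 h, and of these Cdk2 alone overlapped the second group in its order, 0.8 µg 24 h.

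For each gene, the 2 genes of most similar course over the 7 group means were sought among 8752 genes, as the smallest root mean square difference of centred log2 levels. Cdk4 had the nearest neighbours, Grpel1 (0.07) and Psmc5 (0.08). Ccnd2 had Usp31 (0.14) and Polr3d (0.15), Rb1 had Ccni (0.17) and Cep70 (0.18), Cdk2 had Cuedc2 (0.17) and Mdh1 (0.21), and Cdkn1b had Fyb (0.18) and A930005H10Rik (0.21). Ccnd3 had Fancg (0.23) and Mboat1 (0.28), Cdkn2d had Syt11 (0.28) and Tspo (0.30), and Cdk6 had Hif1a (0.29) and Gsto1 (0.30). The least matched were Cdkn2c, nearest Nek2 (0.41) and Hmgb2 (0.49), and Cdkn1a, nearest Agpat4 (0.46) and Gadd45g (0.61). Each value is a description over 7 means and is not scaled to the range of the gene. On the log2 scale that range was 2.27 for Cdk4, 6.83 for Cdkn2c and 4.92 for Cdkn1a, beside 5.27 for Cdkn1b.

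The rest of the G1/S pathway was taken from 8 lists of 80 symbols, of which 76 passed the filter. Calls counted in a list include genes with a group of at most 3 counts in every library. For these the fitted value is no measure of size. Among E2F target genes of S phase, 2 of 18 were higher and 3 lower at 4 h with 0.8 µg, beside 17.3% and 23.4% of all genes, and 3 were higher and 2 lower with 80 µg, beside 18.4% and 25.1%. At 12 h, 17 of 18 (0.8 µg) and 18 of 18 (80 µg) were higher than the control, and at 24 h 18 of 18 at both doses, beside 17.2%, 17.8%, 11.5% and 12.3% of all genes in turn. Their median log2 fold change at 24 h was 3.28 with 80 µg, beside -0.00 over all genes tested. The largest there were Rrm2 (7.19 ± 0.38) and Tk1 (6.52 ± 0.42), which supply nucleotides, and Cdc6 (5.97 ± 0.39), which loads the replicative helicase.

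The list of cyclins E and A with their activators had 2 of 5 higher and 3 lower at 4 h at both doses. Of all genes, 17.3% and 23.4% were so called at 0.8 µg, and 18.4% and 25.1% at 80 µg. Among the lower ones, Ccna2 and Cdk1 had no 4 h library over 3 counts. The control means of these 2 genes were 8.33 ± 6.54 and 5.18 ± 5.78 normalised counts (SD, n = 3). At 24 h, 5 of 5 were higher at both doses (of all genes, 11.5% and 12.3%). Their median log2 fold change at 24 h was 4.69 at 0.8 µg and 5.39 at 80 µg. At 24 h with 80 µg the leading genes were Ccne2 (6.31 ± 0.50), Cdk1 (6.19 ± 0.41), Ccna2 (5.39 ± 0.36) and Ccne1 (4.29 ± 0.31). At 12 h, 3 of 5 were higher with 80 µg than with 0.8 µg, beside 1.83% of all genes: Ccna2 (2.95 ± 0.48, adjusted p = 7.59e-07), Ccne2 (2.50 ± 0.42, adjusted p = 3.27e-07) and Cdk1 (1.48 ± 0.26, adjusted p = 1.51e-06). In the same comparison, and beside the same 1.83%, 4 of 12 pocket protein and E2F genes were higher, E2f2 (2.53 ± 0.29), E2f1 (1.08 ± 0.31), E2f7 (means of 12.8 against 0.893 normalised counts) and E2f8 (15 against 2.91), the last 2 of which had no 0.8 µg library over 3 counts, and 2 of 18 E2F targets, Rrm2 (2.02 ± 0.25) and Cdc6 (1.37 ± 0.23). Of these genes E2f1 was not called without the 80 µg 12 h replicate 2 alone (0.97). At 24 h, DESeq2 called 0 of the 76 pathway genes between doses, beside 0.89% of all genes called higher and 0.673% called lower. Under the fold threshold, genes with an adjusted p under 0.05 included E2f2 (0.99 ± 0.19, adjusted p = 1.38e-05), Cdk1 (0.85 ± 0.22, 0.00368) and Rrm2 (0.74 ± 0.20, 0.00656), each higher with 80 µg. Of the 76 genes, 13 were higher and 2 lower with 80 µg at an unadjusted p under 0.05, edgeR called 2 higher, and limma called 4 higher.

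Of the 12 pocket protein and E2F/DP genes, 4 were higher and 5 lower at 4 h at both doses, where 17.3% and 23.4% of all genes (0.8 µg) and 18.4% and 25.1% (80 µg) were called. With 0.8 µg, Rbl2, which encodes the pocket protein p130 of resting cells, fell by 4.52 ± 0.29 on the log2 scale (from a mean of 399 to 16.5 normalised counts). Tfdp2 (-3.60 ± 0.39) and E2f2 (-3.56 ± 0.39) fell as well. Tfdp1 went from a mean of 1.01 to 35.9. Among 8 known regulators of Ccnd2 and Cdkn1b transcription, 2 were higher and 4 lower at 4 h with 0.8 µg, beside the same 17.3% and 23.4%. Foxo4 (-4.77 ± 0.57) encodes a FOXO factor of the family that activates Cdkn1b, and Klf2 (-4.77 ± 0.39) a quiescence factor, while Myc (4.06 ± 0.23) and Stat5a (3.30 ± 0.14) rose. Foxo1, of the same family, was called between doses at 4 h, 1.26 ± 0.12 higher with 80 µg (adjusted p = 5.54e-22). Against the control Foxo1 was lower at both doses (-2.82 ± 0.12 and -1.56 ± 0.11). Foxo3 and Foxo4 went the other way between doses without a call. Foxo3 stood at -0.91 ± 0.30 (adjusted p = 0.024). Foxo4 had means near the floor, 1.8 normalised counts with 0.8 µg and 0 with 80 µg, against 73.8 in the control.

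Of 14 p53 target genes, 4 were higher and 4 lower at 4 h at both doses, beside 17.3% and 23.4% of all genes at 0.8 µg and 18.4% and 25.1% at 80 µg. With 0.8 µg the largest changes were in Trp53inp1 (-4.38 ± 0.39), Sesn1 (-4.26 ± 0.34), Aen (3.07 ± 0.32) and Bbc3 (-2.96 ± 0.66). Between doses, 1 of 14 was called at 4 h and at 12 h, Trp53inp1 each time (1.85 ± 0.40 and 1.51 ± 0.44 higher with 80 µg), beside 3.12% and 1.83% of all genes called higher, and its 12 h call was lost without the 0.8 µg replicate 3 of that time alone (1.30). The list for turnover of G1 cyclins and p27 held 11 genes, of the SCF ligase and of other enzymes. Not all of them promote degradation, as Usp2 encodes a deubiquitinase. At 4 h with 0.8 µg, 4 of the 11 were higher and 2 lower (17.3% and 23.4% of all genes). The largest changes were in Fbxo4 (-2.62 ± 0.37), Usp2 (2.03 ± 0.40), Cks1b (1.45 ± 0.27) and Cul1 (1.16 ± 0.14). At 12 h, DESeq2 called 6 of 11 higher and 0 lower at both doses (of all genes, 17.2% and 20.5% at 0.8 µg and 17.8% and 20.1% at 80 µg). Without replicate 3 of the 0.8 µg 12 h group alone, 7 were higher and 1 lower at that dose. Without replicate 2 of the 80 µg 12 h group alone, 5 were higher at 80 µg, with Usp2 no longer called (0.83). At 24 h, 2 of 11 were higher at both doses, beside 11.5% and 12.3% of all genes: Skp2, which marks p27 for degradation (1.75 ± 0.28 and 2.12 ± 0.27), and its cofactor Cks1b (3.71 ± 0.26 and 4.07 ± 0.25). Usp2, a deubiquitinase gene, was lower there with 80 µg (-1.87 ± 0.50, adjusted p = 0.000809), 1 of 11 beside 7.91%. Of the 3 other inhibitors that passed, only Cdkn3 was called, at 24 h, with means of 45.4 and 67.3 normalised counts against 0.687 in the control, beside 11.5% and 12.3% of all genes called higher. The other partners of CDK4 and CDK6 had 1 of 5 called higher at 4 h, a share near the 17.3% and 18.4% of all genes. This was Cdc37, a chaperone of CDK4 (1.83 ± 0.12 at 0.8 µg and 1.31 ± 0.12 at 80 µg).

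**Figure D5:**
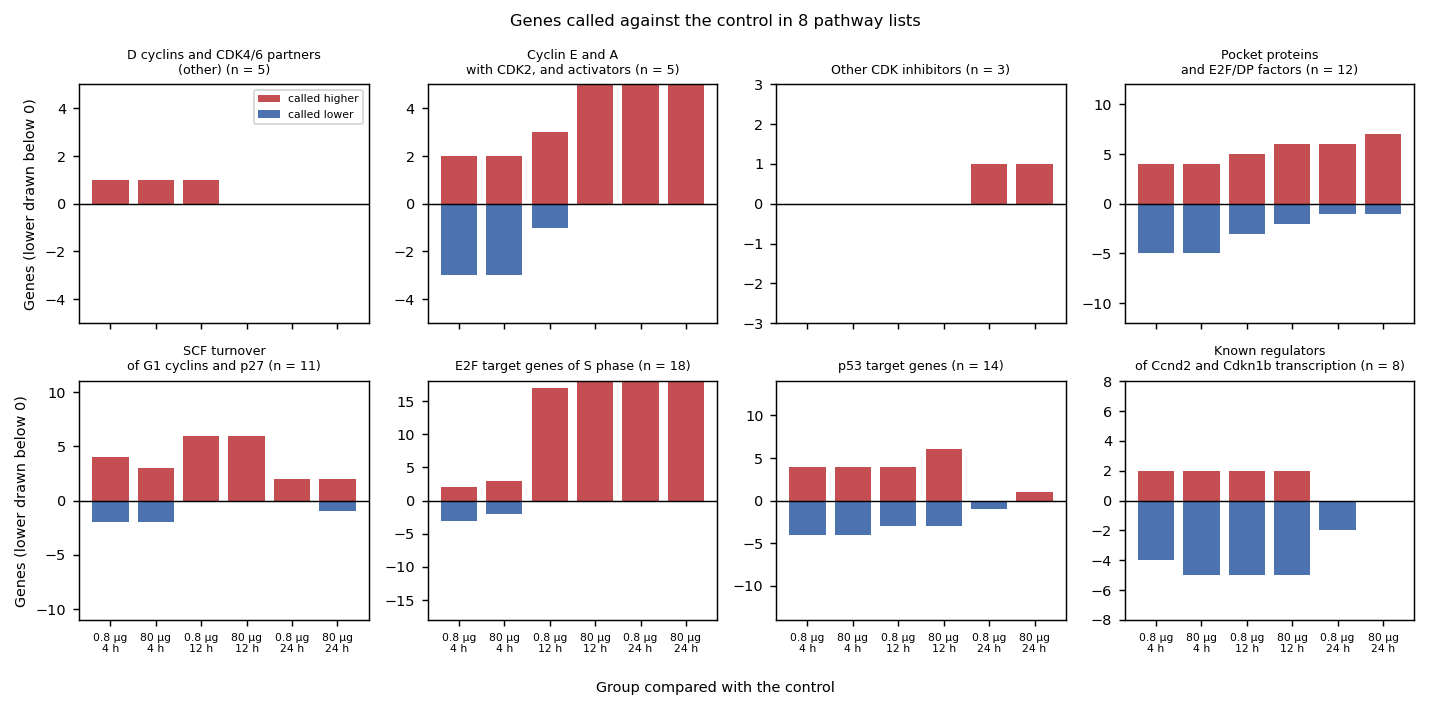
Numbers of genes called higher (red, above 0) and lower (blue, below 0) than the control in 8 pathway lists, for the 6 groups given peptide. All 18 E2F targets are higher at 24 h at both doses, whereas 2 or 3 are higher at 4 h.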

How the data were processed

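Sorted CD4+ T cells from 3 mice in each of 7 groups were profiled by QuantSeq 3' mRNA sequencing. By the study's methods and the submitters' processing notes, the authors trimmed the reads, aligned them with STAR 2.5.2a to GRCm38 (mm10) and counted them per gene with HTSeq. Annotation release, strand setting and treatment of molecular identifiers are not given in the sources used here. The authors deposited a table of raw counts, which carried every test, and a table of log2 values (DESeq2 regularised log), used for gene symbols and for checks of sign and pairing. Low 3' counts carry counting error, and a floor of 3 counts per library stands for a count of 0. PCR copies were not told apart, so counting intervals cover counting error only.

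Counts were analysed in R 4.3.3 with DESeq2 1.42.0, following the study's methods in the filter of at least 10 counts over all samples, the shrinkage of log2 fold changes with a normal prior, and the calls at an adjusted p under 0.05 with a shrunken log2 fold change over 1 in size. The fit over all 21 libraries with a coefficient per group, Wald tests and Benjamini-Hochberg adjustment were chosen here. The time dependence of dose was tested by a DESeq2 likelihood ratio test and called at an adjusted p under 0.05. The tests were tested on simulated data with known changes. Alternatives were edgeR 4.0.16, limma 3.58.1 (voom), TMM size factors, stricter and no filters, a replicate block, each replicate number left out in every group, unshrunken folds, no fold threshold, only the 6 samples compared, and, chosen after seeing the data, library totals as size factors and leaving out either of 2 libraries at 12 h alone.

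All 10 genes were named. From each pathway list up to 4 called genes with the largest log2 fold change in size were named in the comparison described. Ccnd1, Skp2, Cks1b and Usp2 at 24 h and the genes on the opposite strand were chosen after their values were seen. So were E2f2, Cdk1 and Rrm2 between doses at 24 h. The same holds for Foxo3 and Foxo4 between doses at 4 h, Ccna2 and Cdk1 against the control there, and Usp2 at 12 h. The genes and lists were chosen with earlier results of these data known. Genes of like course were sought among genes whose mean normalised count reached 20, on log2 of the value plus 1. The mice of a group were sorted in parallel, and p-values measure the spread between mice. Gene positions came from GENCODE and promoter sequences from RefSeq, both on GRCm38.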

Additional observations from a re-analysis of the deposited data

Results flagged for a closer look

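For 5 genes the effect of dose differed between times by the likelihood ratio test on 18 libraries. The span between the smallest and the largest of the 3 dose differences, on the log2 scale, was 1.77 for Ccnd3, 1.54 for Cdk6, 1.37 for Cdkn1b, 1.05 for Rb1 and 0.55 for Ccnd2. The sign of the difference changed between times in all 5.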

How the results depend on the processing

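Over 97 member differences with an adjusted p under 0.05, no direction was reversed under any alternative, and edgeR, both filters and unshrunken folds changed no call. The number of the 10 genes called between doses at 4 h was 3, against 2 with limma and 2 with only the 6 samples compared (Cdkn1b lost). At 12 h it was 2, against 1 with limma, 4 without the fold threshold, 1 with only the 6 samples compared, 1 with library totals and 0 to 1 with a replicate number left out. Without the 0.8 µg 12 h replicate 3 alone it was 1, and without the 80 µg 12 h replicate 2 alone 2, Cdkn2c in place of Cdkn2d. At 24 h it was 3, against 5 without the fold threshold, 2 with limma and 2 with only the 6 samples compared (Cdkn1a lost), and 1 with any replicate left out. Against the control at 24 h it was 4 at 0.8 µg, against 7 without the fold threshold, 2 with library totals (Cdk6 and Cdk2 lost) and 2 to 5 with a replicate left out, and 5 at 80 µg, against 10 without the fold threshold. The dose effect differed between times for 5 genes, against 2 to 4 with a replicate number left out and 3 without the 80 µg 12 h replicate 2 alone. Leaving out only these 12 h libraries, each in turn, changed 3 of 97 calls each time. Over all genes, that test called 1036 genes, 662 with limma, 368 without replicate 1 and 468 without replicate 2. The dose comparison called 635 genes at 4 h, 311 at 12 h and 151 at 24 h, and with a replicate left out 413 to 554, 168 to 266 and 83 to 113. Without the fold threshold it called 1301 at 4 h, 699 at 12 h and 573 at 24 h, with only the 6 samples compared 145 at 12 h and 83 at 24 h, and with limma 282 at 24 h. Without the fold threshold, the counts against the control at 24 h were 4551 in place of 2185 (0.8 µg) and 5048 in place of 2615 (80 µg), those from 4 h to 12 h 4822 in place of 2532 and 5415 in place of 3130, and those from 12 h to 24 h 5689 in place of 3434 and 5907 in place of 3601. The causes were not tested. Library totals shifted the median of all genes from -0.13 to -0.27 (0.8 µg, 4 h) and from -0.00 to -0.23 (80 µg, 24 h).

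By the rule used, same-numbered replicates did not deviate together (0 of 21 pairs of groups with every correlation above 0.1). Their mean correlation was 0.00 and the lowest -0.2, and the main fit paired no samples. The rule can miss a weaker pairing, or one shared by only some groups. With the replicate block, 3 genes in place of 4 were called from 4 h to 12 h at 0.8 µg, Cdkn2d being lost, and the dose effect changed with time for 5, among 903 genes. Depth limits Cdkn2c and Cdkn1a, whose low groups held 0 to 10 counts.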
